A study of Homo sapiens with 4 samples.

Results

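Tubulin mRNA was followed in HCT116 cells for 10 genes, the α-tubulin genes TUBA1A, TUBA1B, TUBA1C and TUBA4A and the β-tubulin genes TUBB, TUBB2A, TUBB2B, TUBB3, TUBB4B and TUBB6. The genes were chosen by name, with earlier results of these data known. All 10 were found by Ensembl identifier among the 58735 genes of the files. HCT116 is an established cell line from a human colorectal carcinoma. Cells received a small interfering RNA (siRNA), a short double-stranded RNA that directs the breakdown of a matching mRNA, and poly(A) RNA was sequenced 48 h later. The control siRNA group held 2 libraries and the KIF26B siRNA group held 2 libraries, with no other treatment or genotype given in the labels. KIF26B is an atypical kinesin that binds microtubules, and the comparison asked which transcripts differ when it is targeted. The study used more than 1 siRNA against KIF26B, and the labels do not say which one each library received. The value columns of that group are headed K_KD1_2 and K_KD2, so its replicates 1 and 2 may have received different siRNAs. The labels also do not say whether the libraries of a group came from separate cultures. The p-values thus measure only the spread between these libraries, which may be technical.

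Microtubules are hollow polymers of α/β-tubulin heterodimers that form the mitotic spindle, the tracks of kinesins and dynein, and the core of cilia. Human cells encode several α- and β-tubulins, called isotypes, whose bodies are nearly alike and whose acidic C-terminal tails differ and carry most of the modifications that motors and severing enzymes read. Epithelial cells draw mainly on TUBA1B, TUBA1C, TUBB and TUBB4B, whereas TUBA1A, TUBB2A, TUBB2B and TUBB3 are best known from neurons. Cells also tune the stability of tubulin mRNA to the amount of free dimer: the factor TTC5 recognizes the first residues of a newly made tubulin chain on the ribosome and, through SCAPER and CNOT11, brings in the CCR4-NOT deadenylase.

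The first 30 coding bases are shown because the first 12 of them, in capitals, encode the 4 residues on which this autoregulation depends. Sequences are those of the canonical transcripts of GENCODE v44 mapped to GRCh37, written 5′ to 3′ on the strand of the gene.
TUBA1A, TUBA1B and TUBA1C: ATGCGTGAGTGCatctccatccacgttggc
TUBA4A: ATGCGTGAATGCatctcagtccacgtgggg
TUBB: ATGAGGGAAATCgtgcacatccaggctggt
TUBB2A: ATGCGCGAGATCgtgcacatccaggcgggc
TUBB2B: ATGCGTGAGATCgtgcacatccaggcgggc
TUBB3: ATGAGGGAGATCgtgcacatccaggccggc
TUBB4B: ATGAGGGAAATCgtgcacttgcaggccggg
TUBB6: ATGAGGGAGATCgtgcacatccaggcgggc

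The last 60 coding bases of the β-tubulins, before the stop codon, encode the tails by which these isotypes differ. Capitals mark the bases that differ from TUBB when only the last 60 coding bases of each gene are aligned with its last 60. There were 13 such bases in TUBB4B, 18 in TUBB2A and in TUBB2B, 22 in TUBB6 and 35 in TUBB3. The coding sequence of TUBB3 is longer, at 1350 bases against 1332 in TUBB. Its last 60 bases are thus set against an earlier part of the TUBB tail, and its count includes that offset.
TUBB (chr6:30692112-30692171, plus strand): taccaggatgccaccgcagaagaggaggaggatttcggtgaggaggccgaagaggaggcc
TUBB2A (chr6:3154100-3154159, minus strand): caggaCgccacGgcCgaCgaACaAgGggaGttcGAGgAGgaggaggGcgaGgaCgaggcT
TUBB2B (chr6:3224988-3225047, minus strand): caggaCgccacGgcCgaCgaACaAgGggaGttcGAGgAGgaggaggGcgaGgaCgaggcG
TUBB3 (chr16:90002150-90002209, plus strand): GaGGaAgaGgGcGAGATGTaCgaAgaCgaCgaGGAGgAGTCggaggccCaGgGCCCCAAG
TUBB4B (chr9:140137946-140138005, plus strand): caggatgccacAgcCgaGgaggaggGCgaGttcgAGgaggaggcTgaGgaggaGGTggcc
TUBB6 (chr18:12326067-12326126, plus strand): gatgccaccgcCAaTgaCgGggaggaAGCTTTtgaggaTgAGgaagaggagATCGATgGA

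Each member had 4 coding exons, and the coding lengths ran from 1332 bases in TUBB to 1353 in TUBA1A and TUBA1B. Across the whole coding sequence, TUBA1A and TUBA1B shared 97.2% of bases, TUBA1B and TUBA1C 96.8%, and TUBA1A and TUBA1C 95.9%, whereas TUBA4A shared 84.4% to 85.7% with them. TUBB2A and TUBB2B shared 98.2%. The other pairs of β-tubulins shared 80.9% to 87.8%. These near-copies bear on the counts, since a read that fits 2 genes equally well can be given to either or to neither. Every run of 150 bases, the read length, was therefore compared with all annotated transcripts. No such run of TUBA4A, TUBB4B or TUBB6 occurred in another gene, and 2.66% of those of TUBB did. For TUBA1A the share was 8.01%, mostly with TUBA1B, for TUBA1B 19.1% and for TUBA1C 7.22%. It was 48.7% for TUBB2A and 41.6% for TUBB2B, almost wholly with each other. In TUBB3 it was 92.3%, with a read-through gene on the same strand (ENSG00000198211) that contains most of the TUBB3 transcript. That gene was at 0 FPKM in 3 libraries and at 0.0199 FPKM in the library labelled KIF26B siRNA replicate 2. Reads in the shared exons may have been assigned to neither gene, and the counting setting is not given in the sources used here.

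**Figure D1:**
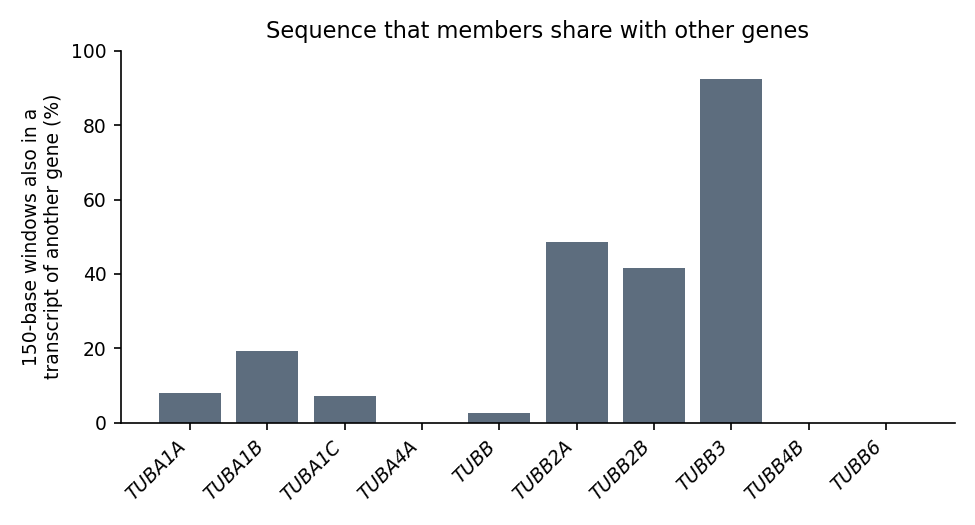
Bars give, for each of the 10 tubulin genes, the percentage of 150-base stretches of its canonical transcript that also occur in a transcript of another gene. TUBB3 (92.3%), TUBB2A (48.7%) and TUBB2B (41.6%) stand highest, and TUBA4A, TUBB4B and TUBB6 are at 0.

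Values are FPKM, fragments scaled to exon length and to library size. The length fitted to the values exceeded the canonical transcript by unequal amounts. It was 3574 bases for TUBA1B against 1627 in that transcript, 3359 against 2515 for TUBB and 2111 against 1563 for TUBB4B. The order of genes, and sums and shares over genes, thus depend on the length used, whereas a gene compared between libraries keeps 1 length. The libraries held 19111681 to 24749772 reads on genes, as recovered from the steps of the FPKM values. The targeted gene KIF26B stood at 0.110 and 0.205 FPKM with control siRNA. In the libraries labelled KIF26B siRNA it stood at 0.140 and 0.0307 FPKM, where 43 and 8 reads fell on it against 31 and 73 in the controls. Replicate 1 of that label thus lay between the controls, at 0.887 times their mean, and replicate 2 lay below both, at 0.195 times. The difference was −0.09 on the log2(FPKM + 1) scale (SE 0.09, limma adjusted p = 0.775). The added 1 is large beside these values and shrinks the difference. With 0.1 added in its place it was −0.52 (limma adjusted p = 0.704), and on recovered reads it was −1.13 (limma-voom adjusted p = 0.576). The libraries labelled KIF26B siRNA also stood further apart than the controls: the median squared difference between them was 16.1 times counting noise, against 2.32 times between the controls. For this reason each member is given in each library. Mitochondrial genes held 6.85% and 6.87% of reads in the controls and 9.63% and 7.73% in the libraries labelled KIF26B siRNA. The part of either in the results was not tested.

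Of 11 epithelial and colorectal markers, 6 passed the expression filter. Their sum lay between 1564 and 1696 FPKM, led by KRT19, and CDX1 was at 0 while VIL1, KRT20, GPA33 and CEACAM5 stayed below 1 FPKM. Since 4 members are known from neurons, 10 neuronal markers were read as well, and none passed the filter. They summed to 0.589 to 0.752 FPKM, and GAP43, NEFL and NEFM were at 0 in every library. The 5 immune markers summed to 0.305 to 0.455 FPKM and the 3 endothelial markers found to 0.114 to 0.402 FPKM. Among 6 fibroblast markers COL1A1 alone passed the filter, with the list at 7.30 and 7.15 FPKM in the controls and at 4.87 and 8.76 FPKM in the libraries labelled KIF26B siRNA.

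Of the 10 genes TUBB4B had the highest FPKM in the controls, at 337.5 FPKM ± 2.12 (SD, n = 2), followed by TUBB at 243.2 ± 2.12 and TUBA1B at 140.4 ± 1.66. TUBA1C, TUBB6, TUBA1A, TUBB2A and TUBA4A came next, at means from 50.4 down to 13.6 FPKM. TUBB3, at 2.51 FPKM, and TUBB2B, at 0.826 FPKM, were lowest. The value of TUBB3 may be understated, since reads in exons shared with the read-through gene may have been assigned to neither gene. The ranges of neighbouring genes in this order did not overlap in the controls. With the KIF26B label TUBB4B and TUBB overlapped at the top, as did TUBA1A with TUBB6 and TUBB2A with TUBA4A, and the order was otherwise kept.

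**Figure D2:**
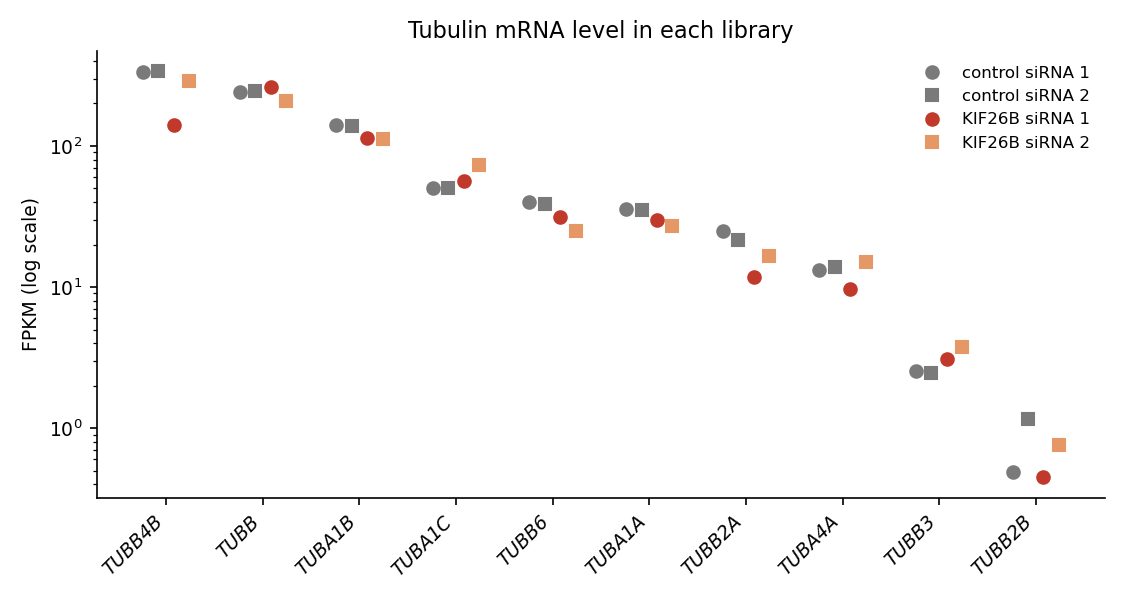
Points give the FPKM (log axis) of each tubulin gene in each of the 4 libraries, with genes ordered by their control mean. The control points nearly coincide for all genes but TUBB2A and TUBB2B, whereas TUBB4B is at 140.9 FPKM in KIF26B siRNA replicate 1 and at 289.9 FPKM in replicate 2.

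Of the 10 genes, 9 reached a mean of 1 FPKM and were tested. TUBB2B did not. At an unadjusted P below 0.05, the significance level of the study's methods, 3 members were lower in the libraries labelled KIF26B siRNA, TUBA1B, TUBB2A and TUBB6, against 8.68% of the 14523 genes tested. No member was higher, against 7.74% of all genes. None passed the fold change threshold of the methods as well, a log2 value beyond 1, which 0.606% of genes passed downwards and 0.813% upwards. After Benjamini–Hochberg adjustment over all genes, limma called 0 members and 0% of all genes, and the smallest adjusted p of any gene was 0.242. Without regard to a test, 5 members lay lower in both libraries labelled KIF26B siRNA than in both controls (TUBA1A, TUBA1B, TUBB2A, TUBB4B and TUBB6), as did 27.8% of all genes, and 2 lay higher in both (TUBA1C and TUBB3), as did 24.9%. With 2 libraries against 2, an exact two-sided permutation test of 1 gene cannot go below 0.333. The median log2 difference of the 9 members was −0.31, with 7 below 0 and 2 above, and that of all genes tested was −0.01. A lower value may stem from less of an mRNA in each cell or from fewer cells that carry it, and in bulk RNA these cannot be told apart.

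The count of lower members depended on single libraries. It was 6 of 9 without the library labelled KIF26B siRNA replicate 1, and also 6 without replicate 2, where 23.7% and 22.4% of all genes were lower. It was 0 without either control, where 1.67% and 1.61% of all genes were. With 1 library left in a group, that library is taken to vary like those of the other group, and the controls vary little.

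**Figure D3:**
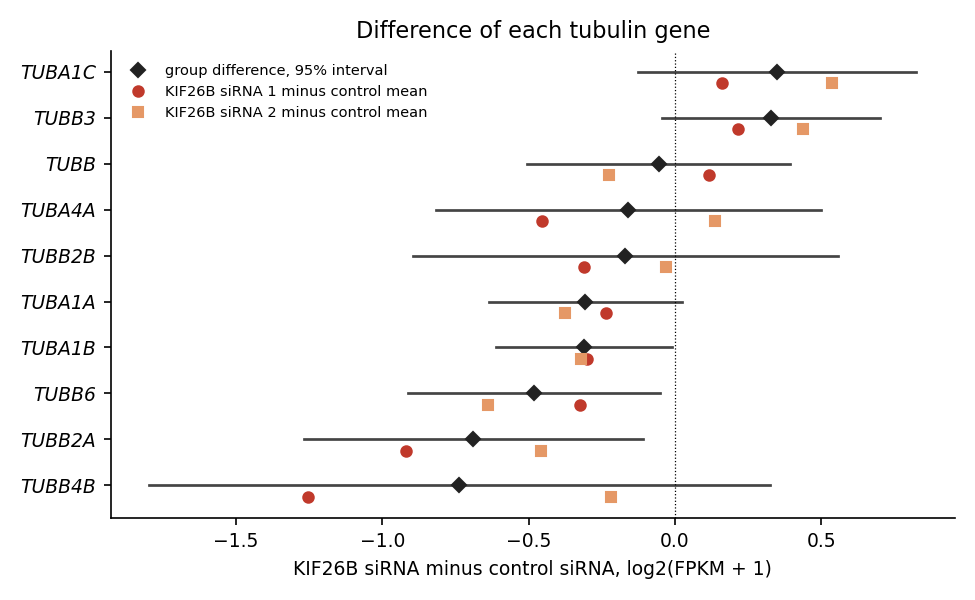
For each tubulin gene the diamond gives the KIF26B siRNA minus control siRNA difference on the log2(FPKM + 1) scale with its 95% interval from limma, and the smaller points give each KIF26B siRNA library minus the control mean. Intervals of TUBA1B, TUBB2A and TUBB6 lie below 0, and the points of TUBB4B, at −1.25 and −0.22, are the farthest apart.

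TUBA1B (ENSG00000123416), on the minus strand of chromosome 12 of GRCh37 at 49521565-49525180, encodes the main α-tubulin of dividing cells. It stood at 141.6 and 139.3 FPKM in the controls and at 113.9 and 112.3 FPKM in the libraries labelled KIF26B siRNA, from 7250 to 12281 reads. The groups did not overlap, and each group spread by only 0.02 on the log2 scale. The log2 difference was −0.31 (SE 0.11, 95% interval −0.61 to −0.01, limma adjusted p = 0.298). Both libraries labelled KIF26B siRNA differed from the control mean by a like amount, −18.9% and −20.1%. The gene passed the unadjusted threshold only just, and no longer did with a replicate block, a pseudocount of 0.1 or median-of-ratios scaling. Its adjusted p lay between 0.218 and 0.500 over 7 other settings.

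TUBA1A (ENSG00000167552), the α-tubulin of postmitotic neurons, lies on the same strand at 49578469-49582863. Its values were 35.4 and 34.9 FPKM in the controls and 29.7 and 26.9 FPKM with the KIF26B label. Both of the latter were lower, by −15.5% and −23.6% of the control mean, and the log2 difference equalled that of TUBA1B, at −0.31 (SE 0.12, 95% interval −0.63 to 0.02, limma adjusted p = 0.318).

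TUBA1C (ENSG00000167553) lies on the plus strand at 49582519-49668383 and encodes an α-tubulin of dividing cells. It was at 50.6 and 50.2 FPKM in the controls and at 56.5 and 73.7 FPKM in the libraries labelled KIF26B siRNA. Both were above the controls, by 12.1% and 46.1%, with replicate 2 well above replicate 1. The log2 difference was 0.35 (SE 0.17, 95% interval −0.13 to 0.82, limma adjusted p = 0.392). Without replicate 1 it was 0.54, and without replicate 2 it was 0.16. The ends of TUBA1A and TUBA1C overlap on opposite strands over 345 exon bases. TUBA1B shares 1571 of its 3574 exon bases with TUBA1B-AS1, also on the opposite strand. That gene was at 0.187 and 0.174 FPKM in the controls and at 0.0287 and 0.0678 FPKM in the libraries labelled KIF26B siRNA. The library kit does not mark strand, so reads in such stretches cannot be told apart.

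TUBA4A (ENSG00000127824, chromosome 2, minus strand, 220114432-220142624), an α-tubulin found in many tissues, was at 13.3 and 14.0 FPKM in the controls. With the KIF26B label it was at 9.66 FPKM in replicate 1 and at 15.1 FPKM in replicate 2, on either side of them. The log2 difference of −0.16 (SE 0.24, 95% interval −0.82 to 0.50, limma adjusted p = 0.763) turned to 0.14 without replicate 1. TUBA4A shares 628 of its 3698 exon bases with STK16 on the opposite strand. STK16 was at 5.55 and 5.55 FPKM in the controls and at 6.22 and 7.78 FPKM in the others.

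Among β-tubulins, TUBB4B (ENSG00000188229), a broadly made isotype also found in cilia, lies on the plus strand of chromosome 9 at 140135739-140138159. It stood at 336.0 and 339.0 FPKM in the controls, at 140.9 FPKM in the library labelled KIF26B siRNA replicate 1 and at 289.9 FPKM in replicate 2, from 13922, 17656, 6353 and 11057 reads. Both were below the controls, but unequally so, at −58.3% and −14.1%, and the SD of the 2 libraries was 105.4 FPKM against 2.12 FPKM in the controls. The log2 difference of −0.74 was the largest of the members and had the widest interval (SE 0.38, 95% interval −1.80 to 0.32, limma adjusted p = 0.409). It was −1.25 without replicate 2 and −0.22 without replicate 1.

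TUBB2A (ENSG00000137267), a β-tubulin abundant in brain, lies on the minus strand of chromosome 6 at 3153731-3157778. It was at 24.9 and 21.5 FPKM in the controls and at 11.8 and 16.6 FPKM in the libraries labelled KIF26B siRNA. The groups did not overlap, and replicate 1 again lay farther below, at −49.3% against −28.5%. The log2 difference was −0.69 (SE 0.21, 95% interval −1.27 to −0.11, limma adjusted p = 0.274). It passed the unadjusted threshold under 7 of 7 other settings with all libraries, and its adjusted p lay between 0.214 and 0.415.

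The neighbouring gene TUBB2B (ENSG00000137285, minus strand, 3223558-3231964), the near-copy of TUBB2A that is known from developing neurons, was barely detected. Its values were 0.488 and 1.16 FPKM in the controls and 0.448 and 0.757 FPKM in the libraries labelled KIF26B siRNA, from 21, 63, 21 and 30 reads. Exact Poisson 95% intervals, which cover counting error only, were 0.302 to 0.745 and 0.894 to 1.49 FPKM in the controls and 0.277 to 0.685 and 0.511 to 1.08 FPKM in the others, so that the controls differed from each other beyond counting error. A difference between the groups was not detectable at this depth (log2 difference −0.17, SE 0.24, limma adjusted p = 0.849, from the fit without a filter). Summed with TUBB2A, the pair was at 25.4 and 22.7 FPKM in the controls and at 12.2 and 17.4 FPKM with the KIF26B label, a log2 ratio of means of −0.70. The sum does not recover shared reads given to neither gene, and each gene is scaled to its own length.

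TUBB6 (ENSG00000176014, chromosome 18, plus strand, 12307668-12344319) encodes a broadly made β-tubulin that is known to destabilize microtubules when abundant. It was at 40.0 and 39.0 FPKM in the controls and at 31.3 and 25.02 FPKM in the libraries labelled KIF26B siRNA. Both lay below the controls, here with replicate 2 farther down, at −36.7% against −20.7%. The log2 difference was −0.48 (SE 0.15, 95% interval −0.91 to −0.05, limma adjusted p = 0.284), and with a replicate block it missed the unadjusted threshold. TUBB6 shares 837 exon bases with AFG3L2 on the opposite strand, a gene at 8.18 and 7.18 FPKM in the controls and at 11.3 and 11.6 FPKM in the others.

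TUBB (ENSG00000196230, chromosome 6, plus strand, 30685212-30693315), the main β-tubulin of dividing cells, did not separate the groups. It was at 241.7 and 244.7 FPKM in the controls, at 263.4 FPKM in replicate 1 and at 207.6 FPKM in replicate 2. The log2 difference was −0.06 (SE 0.16, 95% interval −0.51 to 0.39, limma adjusted p = 0.881), and it was 0.11 without replicate 2 and −0.23 without replicate 1.

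TUBB3 (ENSG00000258947), the β-tubulin used as a marker of neurons, lies on the plus strand of chromosome 16 at 89987800-90005169. It stood at 2.55 and 2.47 FPKM in the controls and at 3.07 and 3.76 FPKM with the KIF26B label. Both of the latter were higher, by 22.4% and 49.7%. The log2 difference was 0.33 (SE 0.13, 95% interval −0.05 to 0.70, limma adjusted p = 0.335), and it passed the unadjusted threshold when no filter on low values was used. The neuronal markers read beside it summed to 0.752 and 0.617 FPKM in the controls and to 0.589 and 0.680 FPKM in the others.

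Summed over the 4 genes, α-tubulin mRNA was at 240.9 and 238.3 FPKM in the controls and at 209.7 and 227.9 FPKM in the libraries labelled KIF26B siRNA, a log2 ratio of means of −0.13. Summed over the 6 genes, β-tubulin mRNA was at 645.6 and 647.8 FPKM in the controls and at 450.9 and 543.6 FPKM in the others, a log2 ratio of −0.38. Relative to the control mean, the β sum thus stood at −30.3% and −15.9% and the α sum at −12.5% and −4.91%. Most of the difference of the β sum in replicate 1 was in TUBB4B: without that gene the β sum was 309.7, 308.8 and 310.1 FPKM in the controls and replicate 1, and 253.8 FPKM in replicate 2. The ratio of the β sum to the α sum in FPKM was 2.68 and 2.72 in the controls and 2.15 and 2.39 with the KIF26B label. Its size depends on the length used for each gene.

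The make-up of each pool was nearly the same in both controls. TUBA1B held 58.8% and 58.4% of α-tubulin FPKM in the controls and 54.3% and 49.3% in the libraries labelled KIF26B siRNA. TUBA1C held 21.0% and 21.1% in the controls and 26.9% and 32.3% in the others. The share of TUBA1C was thus higher, and that of TUBA1B lower, in both. TUBA1A held 14.7% and 14.6% in the controls, 14.2% in replicate 1 and 11.8% in replicate 2, and TUBA4A held 4.61% to 6.62% in all 4 libraries.

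Among β-tubulins, TUBB4B held 52.0% and 52.3% in the controls, 31.2% in replicate 1 and 53.3% in replicate 2. TUBB held 37.4% and 37.8% in the controls, 58.4% in replicate 1 and 38.2% in replicate 2. Shares of a pool sum to 100% by construction, and in replicate 1 TUBB itself stood only 8.32% above its control mean in FPKM while TUBB4B stood at −58.3%. TUBB3 held 0.395% and 0.381% in the controls and 0.682% and 0.692% in the others, higher in both. The remaining β-tubulins held at most 6.95% each. No test was made of shares or sums, since the genes were chosen with results of these data known.

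**Figure D4:**
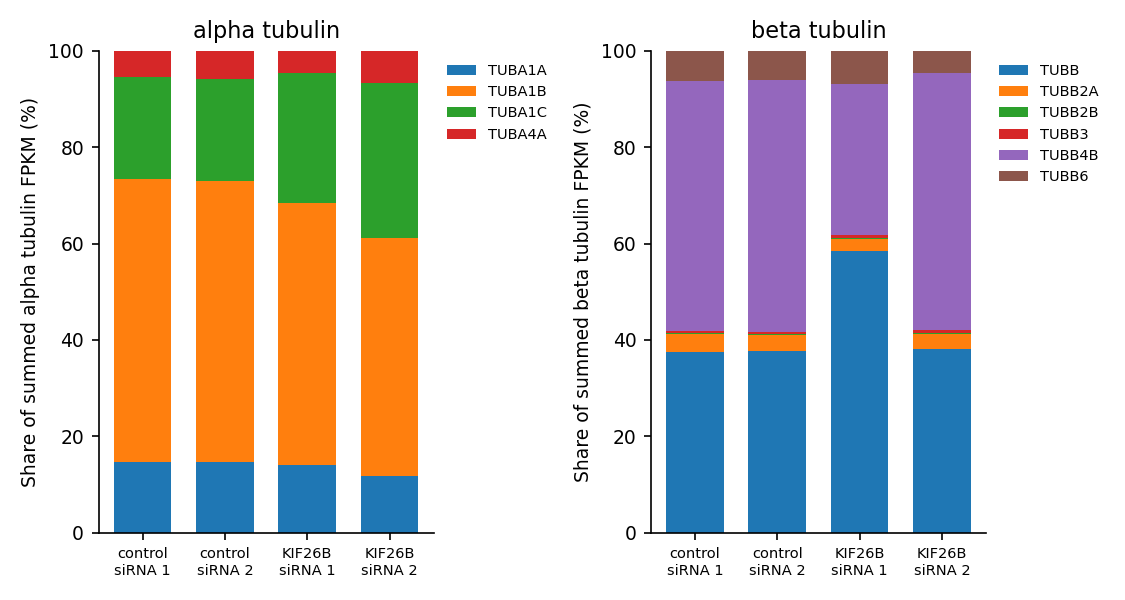
Stacked bars give the percentage of summed α-tubulin FPKM (left) and β-tubulin FPKM (right) held by each gene in each library. TUBA1C takes 26.9% and 32.3% in the KIF26B siRNA libraries against 21.0% and 21.1% in the controls, and KIF26B siRNA replicate 1 alone shows TUBB at 58.4% and TUBB4B at 31.2%.

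Genes that act on tubulin were read from lists, beginning with other tubulins. Of 13 such genes, 5 passed the filter. At an unadjusted P below 0.05, 1 was lower (8.68% of all genes tested were) and 0 were higher (7.74%). The lower one was TUBG1, the γ-tubulin of the nucleating ring. It was at 45.6 and 48.9 FPKM in the controls and at 29.8 and 30.9 FPKM in the libraries labelled KIF26B siRNA, with no overlap (log2 difference −0.62, SE 0.11, limma adjusted p = 0.242).

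Microtubule nucleation was represented by 19 genes of the γ-tubulin ring and the augmin complex, which branches new microtubules from old ones. Of these 18 were tested, with a list median of −0.25. Against 8.68% and 7.74% of all genes tested, 4 were lower and 0 higher. Besides TUBG1 these were CDK5RAP2, a centrosomal activator of the ring, with 8.66 and 9.24 FPKM in the controls and 5.68 and 6.16 FPKM in the others (−0.52, adjusted p = 0.244), and the augmin subunit HAUS1, with 11.9 and 11.9 against 8.71 and 7.31 FPKM (−0.52, adjusted p = 0.253). The ring subunit TUBGCP3 was at 11.0 and 11.7 FPKM in the controls and at 6.001 and 8.45 FPKM in the others (−0.60, adjusted p = 0.280). All 4, picked by P in the same libraries, were lower in both libraries labelled KIF26B siRNA than in both controls. So were 27.8% of all genes tested.

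The folding list held the prefoldin and CCT subunits and the tubulin cofactors, which bring new chains into the dimer. All 21 were tested, with 0 lower, 1 higher and a median of −0.22, where 8.68% of all genes were lower and 7.74% higher. The higher one was ARL2, a small GTPase of the cofactor complex, at 5.92 and 5.74 FPKM in the controls and at 8.15 and 13.0 FPKM in the libraries labelled KIF26B siRNA (log2 difference 0.73, SE 0.24, limma adjusted p = 0.288). None of the 3 autoregulation factors passed the unadjusted threshold. TTC5 was at 2.52 and 2.64 FPKM in the controls and at 2.72 and 2.46 FPKM in the others, and SCAPER at 0.921, 1.06, 1.012 and 1.74 FPKM in the same order. CNOT11 was at 32.1 and 34.2 FPKM in the controls and at 25.6 and 27.6 FPKM in the others (−0.31, limma adjusted p = 0.316).

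Enzymes that add or remove tyrosine, glutamate, glycine or acetyl groups made a list of 27 genes. Of 16 tested, 0 were lower and 0 higher at an unadjusted P below 0.05, against 8.68% and 7.74% of all genes. The list median was −0.01, and the smallest limma adjusted p was 0.307.

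The last list, of microtubule dynamics, held 32 end-binding, stabilizing, destabilizing and severing proteins. Of 25 tested, 5 were lower and 2 higher, against 8.68% and 7.74% of all genes, with a list median of −0.17. FIGNL1, an AAA ATPase related to the severing enzyme fidgetin, was at 9.90 and 10.2 FPKM in the controls and at 4.95 and 5.24 FPKM in the libraries labelled KIF26B siRNA (log2 difference −0.86, SE 0.11, limma adjusted p = 0.242). The severing enzyme SPAST was at 3.17 and 3.54 against 2.37 and 2.40 FPKM (−0.36, adjusted p = 0.284). The end-binding protein MAPRE2 was at 9.10 and 9.29 against 5.15 and 6.41 FPKM (−0.59, adjusted p = 0.248).

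Among the lattice-binding proteins of that list, MAP2 was lower, at 1.39 and 1.68 FPKM with the KIF26B label against 2.65 and 2.84 FPKM (log2 difference −0.57, adjusted p = 0.243). MAPT, which encodes tau, was higher, at 6.47 and 7.07 against 4.84 and 5.14 FPKM (0.37, adjusted p = 0.280). The plus-end protein CLIP2 was also higher, at 16.9 and 14.9 against 11.9 and 11.7 FPKM (0.40, adjusted p = 0.276). The remaining lower gene was CLASP2, at −0.35. In none of these 7 genes, which were picked by P in the same libraries, did the groups overlap. Of all genes tested, 27.8% lay below both controls in both libraries labelled KIF26B siRNA and 24.9% lay above. Across the 87 genes of these lists, members aside, 9 were lower and 3 higher at an unadjusted P below 0.05, and 8.68% and 7.74% of all genes tested were.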

How the data were processed

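The members and gene lists were chosen with earlier results of these data known. Poly(A) RNA libraries made with a kit that does not mark strand were sequenced as paired-end reads of 150 bases. The submitters' processing notes name HISAT2 2.0.5, featureCounts 1.5.0-p3 and hg38, whereas the study's methods name hg19. The files hold Ensembl identifiers without coordinates. The authors deposited FPKM, 1 value per gene and library, a unit read from the values: for genes with 1 exon, 90.0% to 90.3% of values were whole multiples of 1 step. Symbols and coordinates come from GENCODE v44 mapped to GRCh37, which matched 56513 of 58735 identifiers.

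Genes averaging 1 FPKM or more were compared with limma 3.58.1 (R 4.3.3) on log2(FPKM + 1), a scale that understates changes of low genes, with Benjamini–Hochberg adjustment and no covariates. The residual and prior degrees of freedom were 2 and 2. TUBB2B and KIF26B come from a fit to all genes above 0. The study's methods name a count test. The deposited values are FPKM, so the main test was on the log scale, and a test on recovered reads was an alternative.

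Reads were recovered as the smallest whole numbers, within 0.002 of a read, that fitted 1 length per gene in all libraries, for 99.99% of 34638 genes above 0. The lengths so found for TUBB2A, TUBB2B and TUBB3 fell short of the annotated exon lengths, so their true reads may be more. Totals were 19559113 and 24749772 reads for control siRNA and 21468469 and 19111681 for KIF26B siRNA. Same-numbered libraries did not deviate together (correlation across genes −0.00314), and no pairing was used.

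Named genes are the 10 members, KIF26B and up to 6 genes of each list with the smallest unadjusted P below 0.05. CLASP2, TUBB4A, TUBB8P1, the keratins and overlapping genes were picked with their values in view. On reads simulated for this comparison over 13940 genes with 1 dispersion of 0.01 for every gene, which the real genes do not share, genes changed by 1 on the log2 scale were recovered in 95.7% at an unadjusted P below 0.05 and in 66.0% after adjustment, those changed by 2 in 100% and 97.8%, and 4.19% of unchanged genes were called without adjustment. These rates hold for that dispersion and are not the power of the real comparison. Alternatives were a replicate block, a pseudocount of 0.1, no filter, 1 FPKM in every library, median-of-ratios scaling, a variance trend, limma-voom on recovered reads, and leaving out each library. Python 3.11.15, Biopython 1.88 and matplotlib 3.10.9 were also used. The coding ends of the α-tubulin genes are not reported here.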

Additional observations from a re-analysis of the deposited data

How the results depend on the processing

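With the replicate number as a block, 1 member stayed lower at an unadjusted P below 0.05 (TUBB2A) in place of 3, with 5.93% of all genes lower, and 1 gene of the other microtubule lists was higher in place of 3, with 5.95% of all genes higher. Without a filter 1 member was higher (TUBB3) in place of 0, and 14 list genes of 110 were lower in place of 9 of 87, where 6.33% and 6.31% of all genes were. List genes lower numbered 15 with a variance trend and 20 with limma-voom (9.08% and 10.1% of all genes), and those higher 5 with 1 FPKM in every library, with median-of-ratios scaling and with a variance trend (8.64%, 8.41% and 7.87%), and 7 with limma-voom (7.75%). Limma-voom called 1472 genes lower and 1126 higher without adjustment, and 0 genes passed adjustment under any setting with 2 libraries a group.

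Leaving out each library in turn gave 0 to 6 members lower, 0 to 2 higher (2 without KIF26B siRNA replicate 1, where 22.9% of all genes were higher), 0 to 2 at an adjusted p below 0.05 (TUBA1C and TUBB6 without KIF26B siRNA replicate 1, with 17.3% of all genes) and 0 to 1 beyond the fold threshold (TUBB4B without replicate 2, −1.25, with 2.62% of all genes). List genes lower ranged from 1 to 37 of 87, as the share of all genes lower ranged from 1.61% to 23.7%, and list genes higher from 0 to 17, with 1.82% to 22.9% of all genes higher. The log2 ratio of summed α-tubulin ranged from −0.19 to −0.073 and that of β-tubulin from −0.52 to −0.25. The log2 difference of TUBA4A ranged from −0.45 to 0.14 and that of TUBB from −0.23 to 0.11, each reversed without 1 KIF26B siRNA library, and that of TUBB2B from −0.44 to 0.10, reversed without control siRNA replicate 2. The cause was not tested. Of the members' own values, 83 kept their direction and side of the unadjusted threshold, 12 crossed below it, 10 rose above it and 3 reversed.

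With 2 libraries a group, limma kept 2 residual degrees of freedom. Levels of TUBB2B and KIF26B rest on 8 to 73 reads.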

Other observations

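Tubulin sequences outside the 10 genes were also read, and those named here were chosen after their values were seen. TUBB4A, a β-tubulin known from brain, was at 10.8 and 10.7 FPKM in the controls and at 10.6 and 13.2 FPKM in the libraries labelled KIF26B siRNA (log2 difference 0.13, limma adjusted p = 0.681), above TUBB3 and TUBB2B in every library. The files held 50 α- and β-tubulin pseudogenes, of which 30 were at 0 FPKM in all 4 libraries and 4 reached a mean of 1 FPKM. The highest was TUBB8P1, at 10.4 and 10.8 FPKM in the controls and at 17.1 and 25.3 FPKM in the libraries labelled KIF26B siRNA, from 148, 194, 265 and 332 reads. It was higher in both of them and passed the unadjusted threshold of 0.05 (log2 difference 0.91, SE 0.22, limma adjusted p = 0.248). How far its reads stem from β-tubulin genes was not tested.

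Of 6 tested genes of the epithelial marker list, the keratins KRT8 and KRT18 were lower at an unadjusted P below 0.05, as were 8.68% of all genes. EPCAM, KRT19, CDH1 and CDX2 did not pass that threshold. KRT8 was at 484.9 and 481.7 FPKM in the controls and at 368.5 and 350.1 FPKM in the libraries labelled KIF26B siRNA (log2 difference −0.43, adjusted p = 0.254), and its filament partner KRT18 was at 244.7 and 242.6 against 174.9 and 167.5 FPKM (−0.51, adjusted p = 0.242). KRT19, another type I keratin, was at 842.1 and 862.1 against 921.4 and 951.3 FPKM.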
